A study of Homo sapiens with 2 samples.

Results

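The genes described here are 39 genes of glycolysis and of the cellular response to low oxygen, chosen by name. All 39 were found among the 23352 gene rows (23344 gene names) kept from both deposited gene tables. The muscle-type pyruvate kinase gene PKM is listed there under its older symbol PKM2. Of these, 25 act in glucose uptake, glycolysis and the handling of pyruvate and lactate, and 14 belong to hypoxia-inducible factor (HIF) signalling or are known targets of it.

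The cells were A673, an established human Ewing sarcoma line that carries the EWS/FLI1 fusion. One group received lentivirus with a hairpin against RUNX3 (sh813, the 1 RUNX3 hairpin in the labels) and the other a non-target hairpin, and both were transduced in 6 µg/mL polybrene with virus collected after 72 h and kept in 0.4 µg/mL puromycin for 6 days. Each group is 1 poly(A) RNA library, titled a pool and made from a selected population of this single line, so no difference was tested and no spread between cultures is known. Title and shRNA annotation contradict each other in both libraries. The libraries are therefore called by title, 813 for the RUNX3 hairpin and NT for the non-target hairpin, and every direction turns round if the annotation is right instead. The sources used here do not give the oxygen, medium glucose or density of the cultures.

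Counted read pairs numbered 23342660 for the 813-titled library and 24326135 for the NT-titled library. CPM below means counts of pairs per 1000000, after scaling the libraries by TMM, and a log2 fold is always the 813-titled library over the NT-titled library, with an exact 95% binomial interval in brackets that covers counting error only. RUNX3, the target of the hairpin, had 15.8 CPM in the 813-titled library and 59.9 CPM in the NT-titled library, which goes with the titles (log2 fold -1.92, -2.09 to -1.76). All 7 markers listed for Ewing sarcoma cells were measured, with CD99 at 4026 and 3808 CPM. NR0B1 (-1.11) and NKX2-2 (-1.43) were lower by the 2-fold rule defined below, STEAP1 was at -0.83 and CCND1 at 0.62. Of the 20 markers listed for HEK293 cells (the virus producers), leukocytes, fibroblasts and endothelium, 8 were measured, and the summed level was 4.37 and 9.39 CPM for HEK293, 2.70 and 2.15 for leukocytes, 170 and 210 for fibroblasts (nearly all COL1A1) and 1.43 and 1.46 for endothelium. The part of these levels in the results was not tested. In bulk RNA, fewer cells with a transcript and less of it per cell cannot be told apart.

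Glycolysis splits glucose into pyruvate. Hexokinase, phosphofructokinase and pyruvate kinase catalyse its controlled steps, and lactate dehydrogenase turns pyruvate into lactate. When oxygen is scarce, the HIF alpha subunits escape prolyl hydroxylation by the EGLN enzymes and destruction through VHL, pair with ARNT, and raise transcription of many glycolytic enzymes and of targets such as CA9, ADM and BNIP3. Tumour cells often run glycolysis at a high rate also in the presence of oxygen.

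Taken over all 39 genes, 36 reached 1 CPM in at least 1 library and count as measured. A gene met the 2-fold rule when it differed at least 2-fold and its whole interval lay past 1.5-fold. By that rule 4 of the 36 were higher in the 813-titled library, namely ADM, EPAS1, PFKFB3 and SLC16A1, against 8.13% of all 12254 measured genes. ALDOC alone was lower, against 3.48% of all measured genes. EPAS1 reached 1 CPM only in the 813-titled library (2.74 and 0.905 CPM). It thus entered the count only through the library where it was higher. By a looser rule (1.5-fold or more, with the interval on that side of no difference), P4HA1 joined the higher genes, giving 5 of 36 against 19.8% of all measured genes. The looser rule gave 7 lower genes against 11.2%, adding PFKL, PFKP, PFKFB4, BNIP3L, NDRG1 and P4HA2 to ALDOC. With plain total counts or the authors' RPKM the looser rule gave 7 higher and 3 lower members in place of 5 and 7. Over all 12254 measured genes the looser rule gave 2428 higher and 1371 lower with TMM. It gave 3057 and 902 with plain totals, and 3039 and 916 with RPKM. With TMM the members' shares were 11.1% and 2.78% by the first rule and 13.9% and 19.4% by the second. Their median log2 fold was -0.11 beside 0.01 for all measured genes. Log2 folds above 0 were found for 16 of 36 members, against 50.7% of all measured genes.

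**Figure D1:**
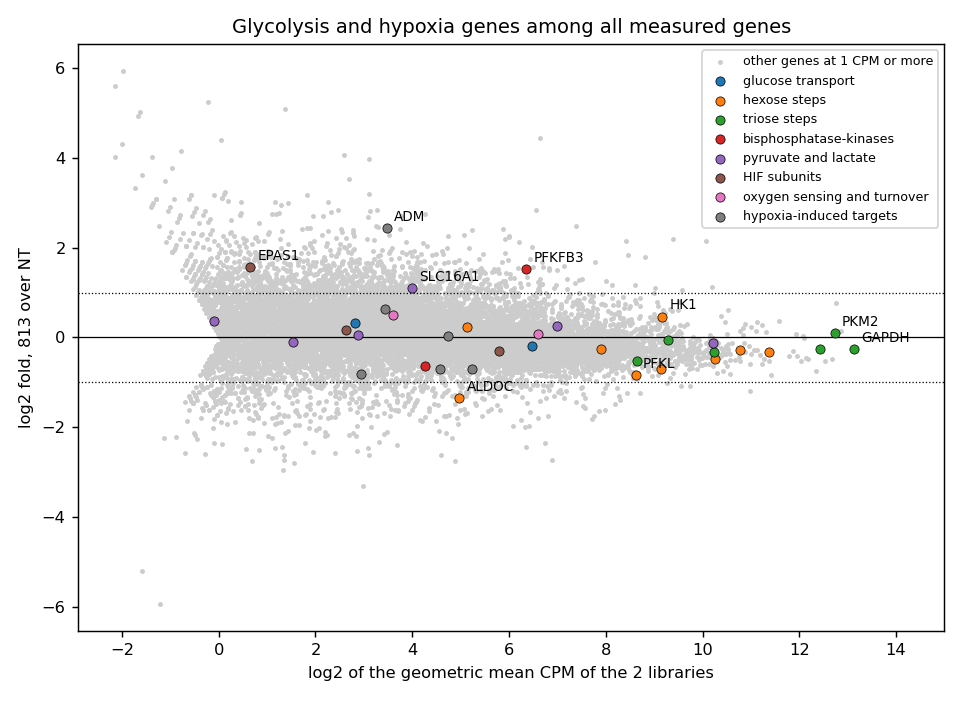
Log2 fold (813 over NT) against mean level (log2 CPM) for all 12254 measured genes in grey and the 36 measured glycolysis and hypoxia genes in colour by role. Dotted lines mark 2-fold, and the most abundant members, GAPDH and PKM2, lie near 0 at the far right while ADM stands at 2.43.

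The enzymes differed widely in abundance, from GAPDH, PKM2 and ENO1 near the top of all genes by RPKM to HK2 at rank 6309 and 6423. GAPDH, the dehydrogenase of the middle of the pathway, ranked first of all genes by RPKM, the authors' read count scaled by gene length and sequencing depth, with 4131 in the 813-titled library and 4503 in the NT-titled library. Next among the members were PKM2 with 1775 and 1520 RPKM and ENO1, the ubiquitous enolase, with 1250 and 1368. The 25 glycolysis genes took 3.21% (3.20 to 3.22) of all pairs in the 813-titled library and 3.34% (3.33 to 3.34) in the NT-titled library. The 14 HIF and hypoxia genes took 0.0310% (0.0303 to 0.0317) and 0.0290% (0.0283 to 0.0297), so they were far scarcer as a group.

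**Figure D2:**
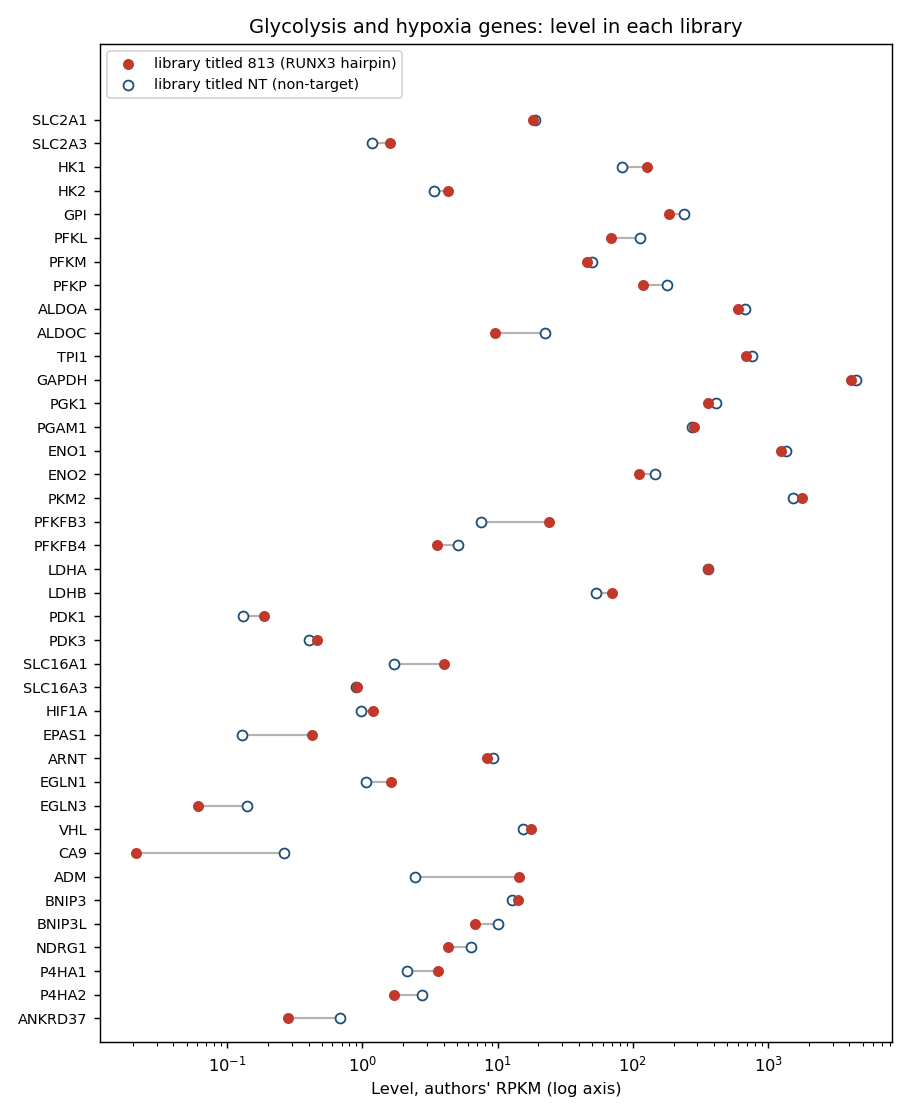
Level of each of the 39 genes in RPKM on a log axis, filled for the 813-titled library and open for the NT-titled library. Levels span from 0.0212 (CA9 in the 813-titled library) to 4503 (GAPDH in the NT-titled library), and wide gaps between the libraries are seen at CA9, ADM, PFKFB3, EPAS1, SLC16A1, ALDOC, ANKRD37 and EGLN3, where CA9, ANKRD37 and EGLN3 had few reads.

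Of the members that transport glucose, SLC2A1 (GLUT1), the widespread basal transporter, had the more abundant transcript. It had 82.7 and 94.4 CPM in the 813-titled and NT-titled libraries and a log2 fold of -0.19 (-0.28 to -0.10). SLC2A3 (GLUT3), a high-affinity transporter, had 7.85 and 6.29 CPM and a log2 fold of 0.32 (0.00157 to 0.64), which was -0.01 after correction for the dependence of the fold on GC content and gene length (the GC and length trend). Neither transporter met either rule of size.

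The 9 genes of the hexose steps, from hexokinase to triose phosphate isomerase, had 7 log2 folds below 0, beside 6038 of all 12254 measured genes. Their median log2 fold was -0.32. With plain totals or RPKM 7 of 9 were again below 0, beside 4825 and 4882 of all 12254, and the medians were -0.18 and -0.19. With the GC and length trend removed 6 of 9 were below 0 (median -0.25), beside 5375 of all 11833. HK1, the main hexokinase here, was an exception with 674 and 487 CPM (0.47, 0.43 to 0.50), and HK2, the inducible hexokinase, another with 37.8 and 32.4 CPM (0.22, 0.08 to 0.36). PFKL and PFKP, the liver-type and platelet-type phosphofructokinases, had 293 against 527 CPM (-0.85, -0.89 to -0.80) and 440 against 720 CPM (-0.71, -0.75 to -0.68), while the muscle-type PFKM had 218 against 259 CPM (-0.25, -0.30 to -0.19). All 3 had log2 folds below 0, and their summed RPKM was 234 against 342. With the GC and length trend removed PFKL and PFKP no longer met the looser rule (-0.52 and -0.48). GPI, the isomerase between hexokinase and phosphofructokinase, had 1034 and 1450 CPM (-0.49, -0.51 to -0.46). TPI1, which interconverts the trioses, had 1582 and 1931 CPM (-0.29, -0.31 to -0.27).

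ALDOC (chr17:26900133-26903951 in hg19), the aldolase best known from brain, was covered by 482 pairs (813) and 1167 pairs (NT), or 19.7 and 50.3 CPM. Its log2 fold of -1.35 (-1.51 to -1.20) met the 2-fold rule, and was -1.03 with the GC and length trend removed. All 9 ALDOC exon records were lower, with log2 folds from -1.73 to -1.01. ALDOA, the aldolase of most tissues, held 98.4% of aldolase RPKM in the 813-titled library and 96.8% in the NT-titled library (2392 and 2976 CPM, log2 fold -0.32). ALDOC was thus a minor form, and the ratio of ALDOA to ALDOC was 62.2 against 30.3.

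The 6 genes of the triose steps differed little, with log2 folds from -0.52 to 0.09 and none meeting either rule. PGK1, which makes the first ATP of the pathway, had 1078 and 1355 CPM (-0.33, -0.35 to -0.31), and was at -0.63 with the GC and length trend removed, which meets the looser rule. ENO2, the neuron-type enolase, had 334 and 481 CPM (-0.52, -0.57 to -0.48) beside -0.26 for ENO1. PGAM1, the mutase, had 611 and 639 CPM (-0.06, -0.10 to -0.03). GAPDH, often used to normalize, had 8273 and 9862 CPM (-0.25, -0.26 to -0.24), and the sign turned to 0.13 with the GC and length trend removed.

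Over the 17 enzymes from hexokinase to lactate dehydrogenase, 13 had log2 folds below 0 (median -0.26), beside 50.7% of all measured genes above 0. That count was 11 with plain total counts or with the authors' RPKM and 10 with the GC and length trend removed. Removing the trend turned the signs of TPI1 and GAPDH and, like the plain totals, that of PGAM1. Of all 12254 measured genes 6038 were below 0 with TMM, 4825 with plain totals and 4882 with RPKM. With the trend removed it was 5375 of 11833. The 4 above 0 were HK1, HK2, PKM2 and LDHB, at the start and the end of the pathway. The sign of LDHA also turned with plain totals (0.02).

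**Figure D3:**
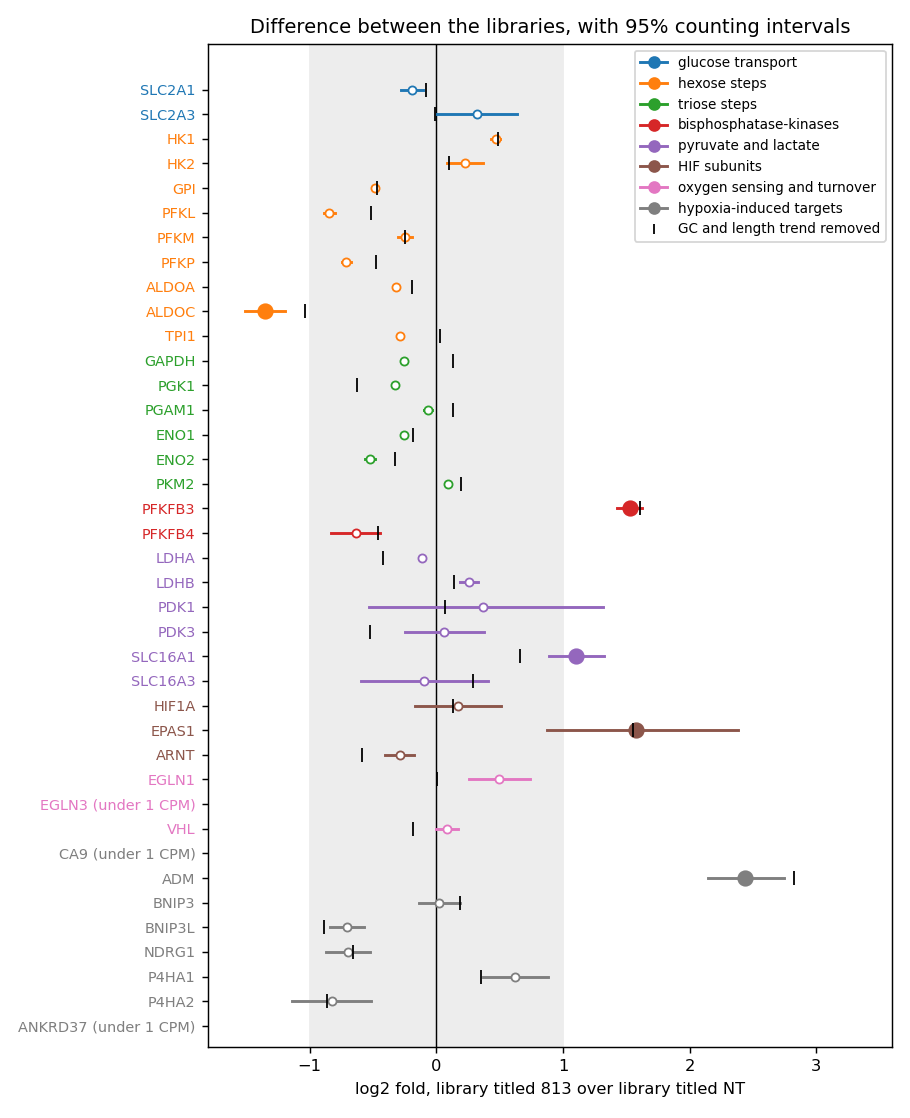
Log2 fold (813 over NT) with 95% counting intervals for the 36 measured genes, coloured by role. Large filled points met the 2-fold rule, the grey band spans 2-fold either way, and black ticks give the fold with the GC and length trend removed, where SLC16A1 falls to 0.66 and ALDOC stays at -1.03.

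PKM makes 2 forms of pyruvate kinase by using one of a pair of exons of equal length. The M1 exon gives PKM1, the form of muscle and brain, and the M2 exon gives PKM2, the form of embryonic and most tumour cells. The sequences of both are shown because reads can be assigned to a form only where they differ. They come from GENCODE release 29 (GRCh38, chromosome 15, minus strand, 72203022-72203188 for the M1 exon and 72202454-72202620 for the M2 exon), are given 5′ to 3′, and have in capitals the bases at which one differs from the other.
PKM M1 exon: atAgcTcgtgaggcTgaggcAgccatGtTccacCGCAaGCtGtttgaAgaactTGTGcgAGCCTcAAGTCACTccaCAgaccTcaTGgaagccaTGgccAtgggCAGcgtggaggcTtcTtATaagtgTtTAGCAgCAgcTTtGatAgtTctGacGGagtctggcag
PKM M2 exon: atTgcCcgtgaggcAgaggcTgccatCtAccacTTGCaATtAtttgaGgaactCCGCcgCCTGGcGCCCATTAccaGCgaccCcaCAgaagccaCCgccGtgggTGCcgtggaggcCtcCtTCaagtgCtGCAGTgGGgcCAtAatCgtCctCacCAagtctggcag
Without gaps, 105 of the 167 bases are the same (62.9%), and the longest run shared at the same position is 10 bases.

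In the exon tables the M1 exon (chr15:72495363-72495529 in hg19) was covered by 6235 reads (813) and 5789 (NT), and the M2 exon (chr15:72494795-72494961) had 22844 and 22267. The M2 exon therefore held 78.6% (77.9 to 79.2, Clopper-Pearson on reads divided by 2) and 79.4% (78.7 to 80.03) of the reads of the pair. The difference was -0.81 percentage points with a normal-approximation interval of -1.75 to 0.14, so a difference in the choice of exon was not detectable at this depth. The pair had 174 and 168 reads per base, between the exon before it (191 and 169) and the exon after it (142 and 140). Over the whole gene PKM2 had 171786 and 152690 pairs (log2 fold 0.09, 0.08 to 0.10).

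PFKFB3 and PFKFB4 make and break the sugar bisphosphate that activates phosphofructokinase, and PFKFB3 favours its synthesis. PFKFB3 (chr10:6186843-6277507 in hg19) was covered by 3396 pairs (813) and 1119 pairs (NT), or 139 and 48.2 CPM, with a log2 fold of 1.53 (1.43 to 1.62). PFKFB4 differed the other way, at 378 and 558 pairs (-0.64, -0.83 to -0.45), and no longer met the looser rule with the GC and length trend removed (-0.46). PFKFB3 made up 86.4% of the RPKM of the PFKFB family in the 813-titled library and 59.3% in the NT-titled library, and the log2 ratio of PFKFB3 to PFKFB4 differed by 2.16 (1.95 to 2.38, Woolf interval for counting error). Shares within a library do not depend on how the libraries are scaled. The 15 PFKFB3 exon records with at least 50 reads over both libraries were all higher, from 1.16 to 2.10. The highest was the 460-base record nearest the 5′ end among them (366 and 80 reads).

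Among the genes that handle pyruvate and lactate, SLC16A1 stood apart. SLC16A1 (MCT1, chr1:113454470-113498975 in hg19), a proton-coupled carrier of lactate and pyruvate, had 570 and 252 pairs, or 23.3 and 10.9 CPM, and a log2 fold of 1.10 (0.89 to 1.32). It did not meet the 2-fold rule with the GC and length trend removed (0.66, 0.45 to 0.89). SLC16A3 (MCT4), the carrier typical of lactate-exporting and hypoxic cells, had only 69 and 70 pairs (-0.10, -0.60 to 0.40). SLC16A1 was 80.5% and 62.9% of the RPKM of the 4 monocarboxylate carriers SLC16A1, SLC16A3, SLC16A7 and SLC16A8. Basigin (BSG), the chaperone that brings these carriers to the membrane, had 2240 and 1892 CPM (0.24, 0.23 to 0.26).

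LDHA, the subunit that favours lactate formation, had 1146 and 1241 CPM (-0.11, -0.14 to -0.09), and LDHB, the heart-type subunit, had 138 and 116 CPM (0.26, 0.18 to 0.33). LDHA was the main subunit, at 83.9% of lactate dehydrogenase RPKM in the 813-titled library and 87.1% in the NT-titled library. The log2 ratio of LDHA to LDHB differed by -0.37 (-0.45 to -0.30). PDK1 and PDK3, kinases that shut the pyruvate dehydrogenase complex, were scarce, with 26 and 19 pairs for PDK1 (0.37, -0.53 to 1.31) and 185 and 168 for PDK3 (0.06, -0.25 to 0.37), and both intervals included 0. PDK2, outside the 39 genes, held 94.6% and 96.2% of the RPKM of this kinase family.

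**Figure D4:**
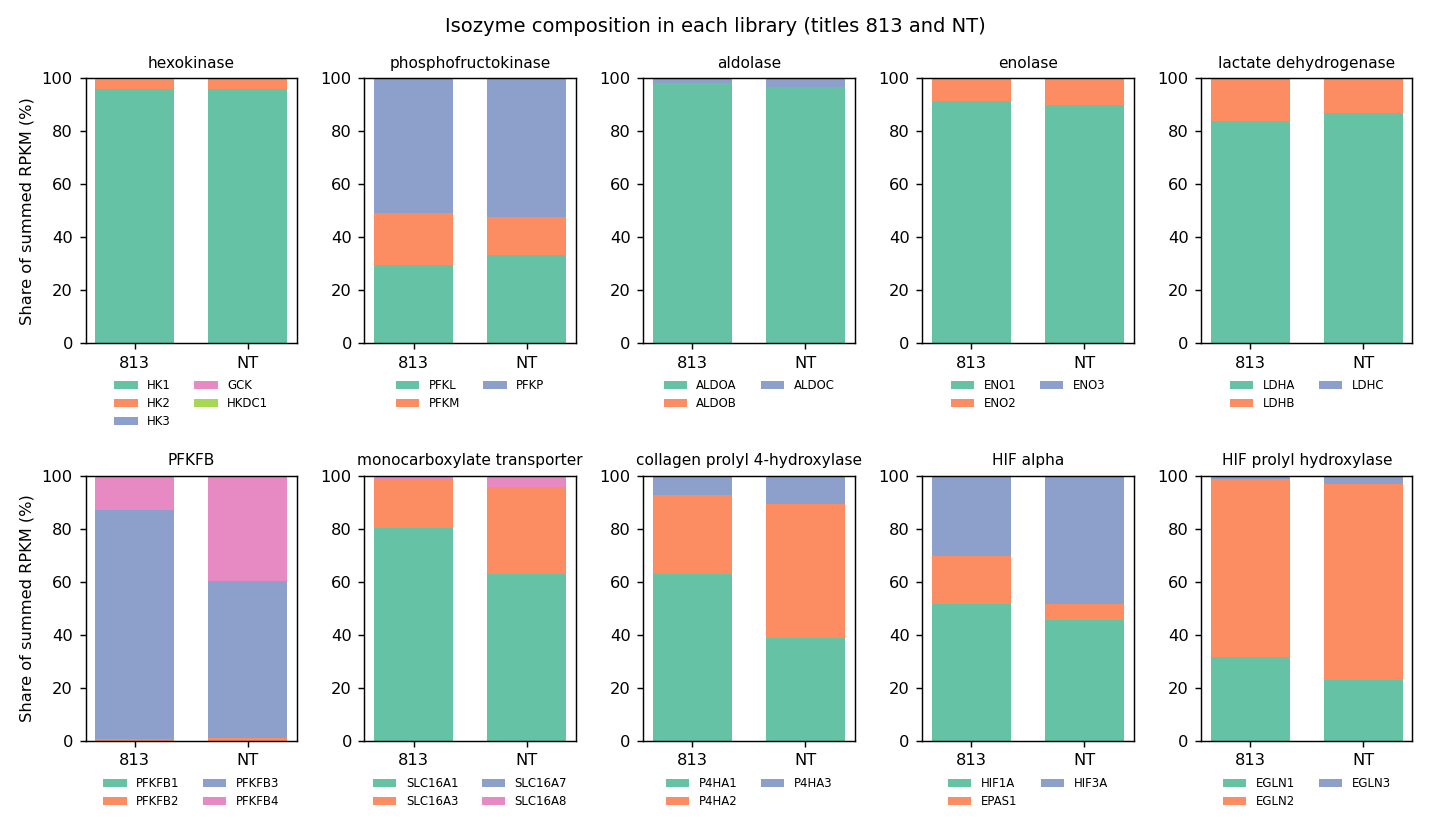
Share of each isozyme in the summed RPKM of its family, in percent, with 1 stacked bar per library. HK1 takes 96.2% and 96.0% of hexokinase, while PFKFB3 takes 86.4% against 59.3% and P4HA1 62.8% against 38.9%.

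Of the HIF subunits, HIF1A, the main oxygen-regulated alpha subunit, had 161 and 136 pairs (6.58 and 5.86 CPM) and a log2 fold of 0.17 (-0.17 to 0.51), so no difference was detectable at this depth. EPAS1 (HIF-2 alpha, chr2:46524541-46613842 in hg19), the second alpha subunit, was covered by 67 and 21 pairs, or 2.74 and 0.905 CPM, with a log2 fold of 1.58 (0.87 to 2.38). It met the 2-fold rule but stayed a scarce transcript. By RPKM, which allows genes to be compared, EPAS1 had 0.426 and 0.129 against 1.2 and 0.980 for HIF1A, and HIF3A, the divergent alpha subunit, had 0.704 and 1.05. EPAS1 made up 18.3% and 5.98% of the RPKM of the 3 alpha subunits. ARNT, their shared partner, had 50.4 and 61.6 CPM (-0.29, -0.40 to -0.18), and was at -0.59 with the GC and length trend removed, which meets the looser rule.

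Of the genes of HIF turnover, neither measured member, EGLN1 or VHL, met either rule under TMM scaling. EGLN1 (PHD2), the main HIF prolyl hydroxylase in most cells, had 353 and 237 pairs (0.50, 0.26 to 0.74), and 0.00322 with the GC and length trend removed. The 2725-base EGLN1 exon record at chr1:231499497-231502221 had 312 and 150 reads (0.98, 0.57 to 1.40). The record at the other end of the gene had 284 and 225 (0.26, -0.11 to 0.63). These intervals overlap, and no EGLN1 record differed 2-fold or more from the rest of the gene. VHL, the substrate receptor of the ubiquitin ligase, had 100.5 and 94.8 CPM (0.08, 0.000226 to 0.17), and its sign turned with the trend removed (-0.18). EGLN3, itself a HIF target, was barely detected, at 5 and 12 pairs (-1.26, -3.20 to 0.27). EGLN2, outside the 39 genes, had 251 and 252 pairs and was the most abundant of the 3 hydroxylases per length (3.49 and 3.37 RPKM).

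The 8 hypoxia-induced targets did not differ in 1 direction. ADM (chr11:10326642-10328923 in hg19), which encodes the vasodilator peptide adrenomedullin, was covered by 634 pairs (813) and 111 pairs (NT), or 25.9 and 4.78 CPM. Its log2 fold of 2.43 (2.15 to 2.74), a 5.4-fold higher level, was the largest of the 36 measured genes under TMM scaling. All 4 ADM exon records gave nearly the same value, from 2.35 to 2.45. BNIP3 and BNIP3L, mitophagy receptors, had 27.1 and 26.7 CPM (0.02, -0.14 to 0.18) and 29.4 and 47.9 CPM (-0.70, -0.84 to -0.57). NDRG1, a stress-induced gene, had 18.6 and 30.2 CPM (-0.70, -0.87 to -0.53).

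P4HA1 and P4HA2, the catalytic subunits that hydroxylate collagen proline, differed in opposite directions. P4HA1 had 330 and 203 pairs (0.62, 0.37 to 0.88), and P4HA2 had 141 and 237 pairs (-0.82, -1.14 to -0.52). P4HA1 was 62.8% of the RPKM of this family in the 813-titled library and 38.9% in the NT-titled library. The log2 ratio of P4HA1 to P4HA2 differed by 1.45 (1.06 to 1.84). With the GC and length trend removed P4HA1 no longer met the looser rule (0.35) and P4HA2 was at -0.86.

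CA9, a carbonic anhydrase that is nearly silent in well-oxygenated cells, was seen in 1 pair (813) and 13 pairs (NT), a log2 fold of -3.25 with a wide interval (-9.19 to -1.04). ANKRD37 had 8 and 20 pairs (-1.35, -2.79 to -0.15). Neither reached 1 CPM, as with EGLN3. CA9 and ANKRD37 had fewer pairs in the 813-titled library, opposite to ADM. EGLN3 also had fewer, but its interval (-3.20 to 0.27) leaves its direction unresolved. Without the filter on low counts CA9 met the 2-fold rule on the lower side.

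**Figure D5:**
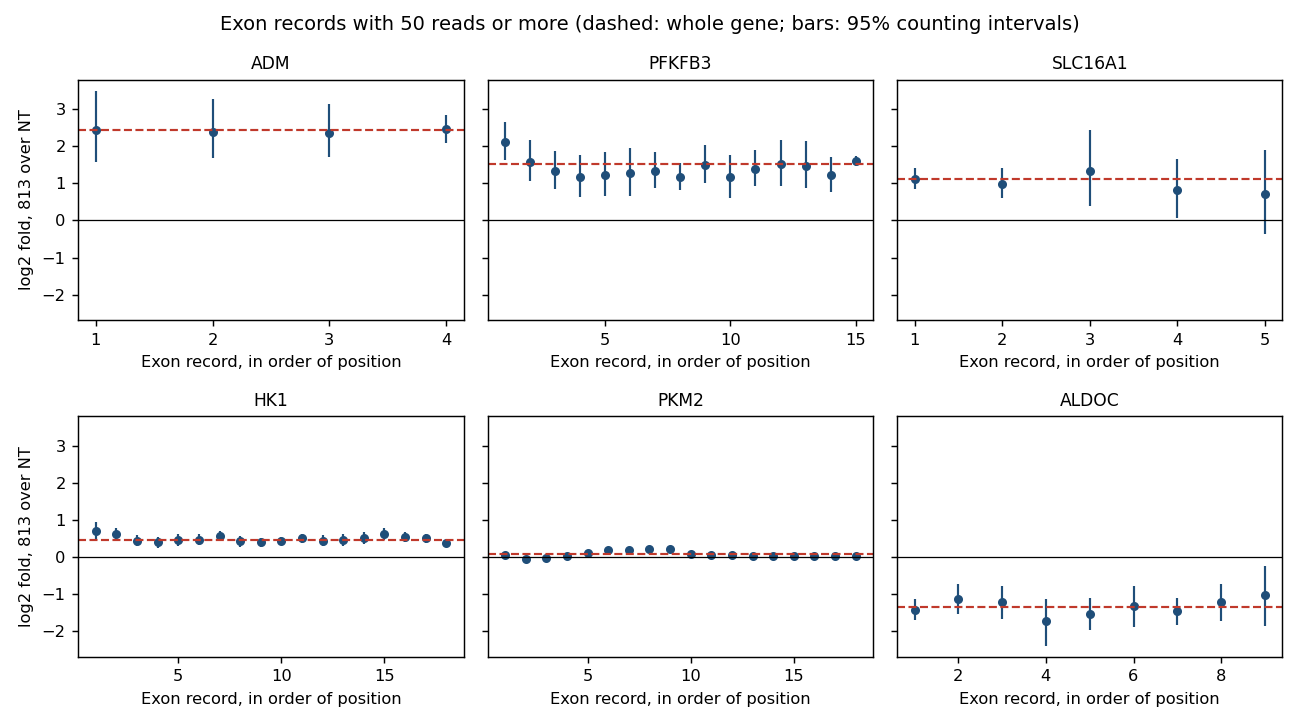
Log2 fold of each exon record with at least 50 reads, in order of position, for ADM, PFKFB3, SLC16A1, HK1, PKM2 and ALDOC, with 95% counting intervals and the fold of the whole gene dashed. Records of ADM run from 2.35 to 2.45 and those of ALDOC from -1.73 to -1.01, each on the same side of 0 as the gene.

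Exon records were compared with the rest of their gene. Of 412 records with enough reads, 0 differed 2-fold or more from the rest of the gene with intervals that did not overlap, against 0.423% of 92852 such records in the whole table. A record had enough reads at 50 or more over both libraries in a gene with at least 200. HK1 reads started at the record chr10:71078603-71078766 (820 and 480 reads). The 7 records upstream of it had at most 3 and 5 reads each. The 18 HK1 records with enough reads were all higher in the 813-titled library, from 0.39 to 0.70.

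The letters ACGTG and GCGTG form the core of HIF binding sites, and promoters were searched for both on either strand. RefSeq (GRCh38.p14) gave 61 promoter windows, from 250 bases before to 50 after a start, for 34 of the 39 genes. ACGTG lay in 24 of them (39.3%) and in 21.4% of all 35116 windows, and GCGTG in 24 (39.3%) and 36.5%. Some genes had several windows, which can overlap, so windows are not separate units. Counted by gene, ACGTG lay in 20 of the 34 (58.8%) and in 24.9% of all 27305 genes. GCGTG lay in 20 (58.8%) and 40.6%. CACGTG holds ACGTG on both strands, and a window was counted once for each motif. Short stretches upstream of the start (GRCh38.p14) are shown, with the match in capitals (CACGT is ACGTG on the other strand): those of PFKFB3 and ALDOC, which met the 2-fold rule, of CA9, and of LDHA and PGK1, long-known HIF targets whose log2 folds here were -0.11 and -0.33.
PFKFB3 (chr10:6202813-6202841, plus strand): accctcctccccACGTGgaagggggctgg
ALDOC (chr17:28576907-28576935, minus strand): ccccggaggagtCACGTagctctgcgaca
CA9 (chr9:35673898-35673926, plus strand): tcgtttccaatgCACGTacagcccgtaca
LDHA (chr11:18394367-18394395, plus strand): gactcccagcgcACGTGgagcagtctgcc
PGK1 (chrX:78104034-78104062, plus strand): gcggcgtgccggACGTGacaaacggaagc
The windows of ADM and EPAS1 held no ACGTG and 1 GCGTG each. SLC16A1, which also met the 2-fold rule, had no window and was not searched, nor were SLC2A3, VHL, BNIP3L and NDRG1. Genes with a match thus include one that was higher, one that was lower and others near 0, and a match is a description of the letters only.

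Other genes of the same pathways were counted from lists of genes that are not among the 39. Of 24 measured genes of glycolysis and pyruvate use, 2 were higher and 0 lower by the 2-fold rule, beside 8.13% and 3.48% of all measured genes. HKDC1, a hexokinase-like protein, had 82 and 8 pairs (3.20, 2.24 to 4.54), and PDP1, the phosphatase that reactivates pyruvate dehydrogenase, had 115 and 38 (1.51, 0.98 to 2.09). HKDC1 reached 1 CPM only in the 813-titled library, where it was higher (3.35 and 0.345 CPM). None of the 7 measured pentose phosphate genes met that rule, though 6 of 7 had log2 folds below 0 (median -0.34). With the GC and length trend removed 4 of 7 were below 0 (median -0.12). Of all measured genes 6038 of 12254 were below 0, and 5375 of 11833 with that trend removed. Of 3 measured genes of gluconeogenesis, PCK2, the mitochondrial phosphoenolpyruvate carboxykinase, was lower (33.8 and 76.4 CPM, -1.17, -1.30 to -1.06), a call that was lost with the GC and length trend removed (-0.81). Of 10 measured genes that modify HIF activity, 0 met the 2-fold rule, and by the looser rule 0 were higher and 2 lower, HIF3A (-0.70) and CITED2, an inhibitor of HIF coactivators (-0.63), beside 19.8% and 11.2% of all measured genes. With plain totals or RPKM 0 of the 10 were lower by that rule, beside 902 and 916 of all 12254 measured genes.

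A second set of hypoxia-induced genes also differed in both directions. Of 18 measured, 4 were higher and 1 lower by the 2-fold rule, beside 8.13% and 3.48% of all measured genes, and the median log2 fold was -0.02. The counts were 2 and 1 with the GC and length trend removed, beside 690 and 302 of all 11833 genes in that setting. They were 4 and 0 with plain totals or RPKM. Of all 12254 measured genes these scalings gave 1324 and 303 (plain totals) and 1313 and 306 (RPKM). By the looser rule 8 of the 18 were higher and 2 lower with TMM, beside 19.8% and 11.2% of all measured genes. That rule gave 8 and 1 with plain totals or RPKM, beside 3057 and 902 (plain totals) and 3039 and 916 (RPKM) of all 12254. With the GC and length trend removed it gave 4 and 2, beside 1858 and 1089 of all 11833. PGF, placental growth factor, had 254 and 35.3 CPM (2.84, 2.74 to 2.95), and CA12, a carbonic anhydrase, had 7.73 and 0.948 CPM (3.0, 2.39 to 3.74). CA12 reached 1 CPM only in the 813-titled library, where it was higher. ERO1L, an oxidase of the endoplasmic reticulum, and the kinase RIOK3 were at 1.14 (0.86 to 1.43) and 1.11 (0.77 to 1.46), and lost the call with the GC and length trend removed (0.99 and 0.75). AK4, a mitochondrial adenylate kinase, was lower with 7.60 and 15.6 CPM (-1.03, -1.30 to -0.77), and lost the call with plain totals or RPKM.

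Some members have near copies elsewhere in the genome, where reads may be split or lost. In a search of GENCODE transcripts, SLC2A3, ALDOA and LDHB each matched 1 other gene at 97% identity or more over at least 50% of the transcript, and GAPDH matched 12 at 90% or more. Among copies listed by name, SLC2A14, the match of SLC2A3, had 0 and 1 pairs, PGAM4 had 8 and 7, and PGK2 had 6 and 0, small beside the parent genes. No counts are given here for the matches of ALDOA and LDHB. Low counts in a copy do not show how many reads of the parent gene were lost. The counting is not stated to use strand, so reads of genes that overlap a member cannot be told apart from its own.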

How the data were processed

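CASAVA 1.9, TopHat2 2.0.6, HTSeq and the build hg19 are named, without roles, in the submitters' processing notes. Which annotation, strandedness and filtering were used is not given in the sources used here. The authors deposited raw counts per gene and per exon record, and RPKM per gene and exon, per the file headers. Deposited gene counts were all even (0 odd values) and were divided by 2 to give pairs; exon reads were halved for intervals. Of 23398 gene rows, 46 repeats were dropped. The members and gene lists were chosen with earlier results of these data known. With 1 library per group no test was made.

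Libraries were scaled by TMM (edgeR 4.0.16, R 4.3.3; factors 1.05 and 0.954), and log2 folds used a prior of 0.5 pairs. Intervals are exact 95% conditional binomial (Clopper-Pearson) intervals (scipy 1.17.1) for counting error only. The named genes are all 39 members, RUNX3, and up to 4 genes per direction of each other list that met the 2-fold rule; MCT carriers, PDK2, EGLN2, HIF3A, CITED2, BSG and near copies were named as context. A smooth GC and length trend (mgcv 1.9.3, 11833 genes) accounted for 15.7% of the log2 fold variance. Copies were sought with blastn 2.17.0.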

Additional observations from a re-analysis of the deposited data

How the results depend on the processing

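Plain total counts moved the median log2 fold of all genes by 0.14 and the authors' RPKM by 0.13 relative to TMM, and higher genes made up 81.4% and 81.1% of all 2-fold calls in place of 70.0%. With these scalings the median of the members was 0.030 and 0.024, and 3 in place of 7 members were lower by the looser rule in each case, with PFKFB4, PFKP, BNIP3L and NDRG1 losing that call, while 7 in place of 5 were higher, with HK1 (0.60) and EGLN1 (0.63) gaining it. Over all 12254 measured genes the looser rule gave 3057 higher and 902 lower with plain totals, and 3039 and 916 with RPKM. With the GC and length trend removed the median of the members was -0.047, and SLC16A1 (0.66) lost its 2-fold call. Without the filter on low counts 2 members, ALDOC and CA9, were lower by the 2-fold rule. The calls of ADM, PFKFB3, EPAS1 and ALDOC held under plain totals, RPKM, median-of-ratios scaling, the 20 most abundant genes left out, a prior of 5 pairs and the trend removed. Among genes at 5 CPM or more EPAS1 was not measured, which left 3 higher members. The sign of the log2 fold differed between settings for 8 of the 36 measured members. Depth limits EPAS1, PDK1, SLC16A3, HIF1A and the 3 genes under 1 CPM. No paired analysis was possible because each group has 1 library.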
